A study of Mus musculus with 10 samples.

Results

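The genes Prg2, Prg3, Epx, Ccr3 and Il5ra mark the eosinophil lineage, and their levels were compared between the sexes in mouse marrow cells depleted of mature lineages. They were chosen by name, as the genes of eosinophil granule proteins and of the receptors for eotaxin and interleukin 5, and make up 5 of the 25178 genes in the count table. All 5 passed the filter on low counts, which kept 14674 genes. The samples were 5 female and 5 male C57/BL6 mice at steady state, and the labels give neither a treatment nor ages. Marrow came from a single hindlimb of each mouse, cells with mature lineage markers were taken out with magnetic beads, and 1 library of total RNA was sequenced per mouse. The study asked how blood formation differs between the sexes. Fold changes are females over males.

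Eosinophils arise in the marrow from myeloid progenitors and carry granules packed with basic, toxic proteins that are made early in their maturation. Interleukin 5 drives their expansion through a receptor that pairs Il5ra with the shared chain Csf2rb, and eotaxins draw the mature cells into tissues through Ccr3. Transcripts of the granule proteins peak in precursors, so a preparation of progenitors can hold them after mature cells are depleted. Which antibodies the bead depletion used is not stated in the labels. In bulk RNA, fewer cells of a type and less RNA per cell cannot be told apart.

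Libraries held 20754101 to 24366241 counts in females and 21136932 to 24759687 in males. Stem and progenitor markers were present, with Kit, the stem cell factor receptor, at 233.6 to 341 CPM (read counts scaled by library size with TMM factors) in females and 150.7 to 300.9 CPM in males. The libraries of male replicates 1 and 2 were unlike the rest, and the part of this in the levels of the 5 genes was not tested. The 9 markers of mature neutrophils summed to 251.2 to 910.5 CPM in females, against 8464 CPM in male replicate 1 and 2653 CPM in male replicate 2, and the median male was at 1315 CPM. In male replicate 2 the deviation of a gene from its mean over the 10 libraries was lower for genes of longer exons, with a rank correlation across genes of -0.51. In the other libraries this correlation lay between -0.30 and 0.37.

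Among the genes of granule proteins, Prg2 encodes major basic protein, the main constituent of the granule core. It lies on chromosome 2 (GRCm38, 84980461 to 84983632, plus strand), and Prg3, which encodes a close homologue of it, starts 4.6 kb after its end (84988215 to 84993886, plus strand). Epx encodes eosinophil peroxidase and lies on chromosome 11 (87864000 to 87875536, minus strand), in a cluster with the peroxidase genes Lpo and Mpo, 35.7 and 59.6 kb away. Ccr3 lies among other chemokine receptor genes on chromosome 9 (124021972 to 124031689, plus strand), and Il5ra on chromosome 6 (106710357 to 106749037, minus strand). No other annotated gene overlaps any of the 5. None of the 50-base stretches of the Prg2, Prg3, Epx and Ccr3 transcripts occurs in a transcript of another gene, and 1.01% of those of Il5ra do. Reads of the neighbours Prg2 and Prg3 can therefore be told apart at that length.

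The 250 bases before the annotated start are shown for the 3 matched genes whose levels moved together most closely between mice. Sequences are from RefSeq (GRCm38.p6), which gave such a window for Prg3, Epx, Ccr3 and Il5ra, 4 of the 5 genes. Capitals mark words for GATA factors, which are GATA after A or T and before A or G, on either strand. The other words searched, also on both strands, were an ETS word (GAGGAA), a STAT word (TTCNNNGAA) and a C/EBP word (TTGCNNAA).
Prg3 (chr2:84987965-84988214, plus strand): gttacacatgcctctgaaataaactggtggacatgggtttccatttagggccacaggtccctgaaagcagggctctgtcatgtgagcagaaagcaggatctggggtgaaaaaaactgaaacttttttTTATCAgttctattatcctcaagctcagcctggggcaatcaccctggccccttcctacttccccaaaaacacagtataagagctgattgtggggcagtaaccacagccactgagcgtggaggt
Epx (chr11:87875537-87875786, minus strand): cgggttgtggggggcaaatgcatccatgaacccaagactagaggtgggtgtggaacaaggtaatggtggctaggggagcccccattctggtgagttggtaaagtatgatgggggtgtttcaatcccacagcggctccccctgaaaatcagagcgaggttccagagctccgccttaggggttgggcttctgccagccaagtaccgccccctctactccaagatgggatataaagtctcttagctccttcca
Il5ra (chr6:106749038-106749287, minus strand): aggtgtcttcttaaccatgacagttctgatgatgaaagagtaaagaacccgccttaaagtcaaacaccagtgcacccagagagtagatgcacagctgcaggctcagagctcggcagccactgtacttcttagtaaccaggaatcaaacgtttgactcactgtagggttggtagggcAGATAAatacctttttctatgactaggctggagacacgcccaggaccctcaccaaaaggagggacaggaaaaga
The Prg3 window held TGATAA on the reverse strand, printed above as TTATCA, at -123 to -118 from the start. The Il5ra window held AGATAA at -74 to -69. The Ccr3 window held AGATAG at -64 to -59, AGATAA at -30 to -25 and GAGGAA at -181 to -176. The Epx window held none of these words. Over 32851 promoter windows of the same length, 26.5% held a GATA word and 23.3% the ETS word, so a match is common. The STAT word (7.0% of all windows) and the C/EBP word (9.6%) were found in none of the 4 windows.

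Per kilobase of annotated exon, Prg2 had the highest level of the 5 genes. It averaged 529 ± 223 CPM per kb in females, against 767 ± 540 CPM per kb in males (n = 5 each, SD) and ranked 101 among 14663 genes with an annotated length, between rank 33 and rank 227 in single libraries. Epx followed at 66.8 ± 32.6 CPM per kb in females and 65.1 ± 37.4 in males, and Prg3 at 25.5 ± 12.9 and 30.7 ± 22.9. The receptor genes were low, with Ccr3 at 0.357 ± 0.146 CPM per kb in females and 0.608 ± 0.714 in males, and Il5ra at 0.317 ± 0.169 and 0.324 ± 0.196. In every library the order was Prg2, Epx, Prg3 and then the 2 receptor genes. Ccr3 and Il5ra differed by less than their spread between mice. Single libraries held 10 to 146 counts of Ccr3 and 8 to 53 of Il5ra, so counting error alone was 8.28% to 31.6% of a value for Ccr3 and 13.7% to 35.4% for Il5ra. For Prg2 it was at most 1.57%.

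Prg2 was at 458.4, 341.9, 340.9, 762.3 and 311.9 CPM in females 1 to 5, against 1303, 897.2, 345.9, 477.5 and 191.5 CPM in males 1 to 5. The sexes overlapped: the lowest of all was a male, and 2 males lay above every female. The means were 443 ± 187 CPM for the females and 643 ± 453 CPM for the males (n = 5 each, SD), a log2 fold change of -0.54 (SE 0.44, 95% interval -1.50 to 0.43, edgeR adjusted p = 0.569). Prg3 was at 23.5, 17.7, 16.2, 45.5 and 18.0 CPM in females, against 62.9, 38, 15.2, 20.5 and 9.06 CPM in males. Its highest and lowest values were again in males. It averaged 24.2 ± 12.2 CPM for the females and 29.1 ± 21.7 CPM for the males, a log2 fold change of -0.27 (SE 0.47, 95% interval -1.28 to 0.74, edgeR adjusted p = 0.772).

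Epx was at 200.4, 166.6, 121.9, 326.4 and 99.0 CPM in females, against 329.9, 159.5, 106.4, 223.3 and 71.6 CPM in males. Female replicate 4 and male replicate 1 were nearly equal at the top. Its means were 183 ± 89.3 CPM for the females and 178 ± 102 CPM for the males (n = 5 each, SD), a log2 fold change of 0.04 (SE 0.40, 95% interval -0.84 to 0.91, edgeR adjusted p = 0.967).

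Of the receptors, Ccr3 was at 0.534, 0.991, 1.11, 1.83 and 1.37 CPM in females, against 6.13, 1.40, 1.11, 0.842 and 0.469 CPM in males. Male replicate 1 stood alone, and the other 9 mice shared one range. Ccr3 averaged 1.17 ± 0.479 CPM for the females and 1.99 ± 2.34 CPM for the males, a log2 fold change of -0.77 (SE 0.61, 95% interval -2.10 to 0.56, edgeR adjusted p = 0.556). Il5ra, the chain that gives the interleukin 5 receptor its specificity, was at 1.36, 0.743, 0.726, 2.10 and 0.743 CPM in females, against 2.22, 0.987, 0.811, 1.40 and 0.375 CPM in males. Both sexes covered much the same range, with means of 1.13 ± 0.603 CPM for the females and 1.16 ± 0.700 CPM for the males and a log2 fold change of -0.05 (SE 0.45, 95% interval -1.03 to 0.93, edgeR adjusted p = 0.963).

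**Figure D1:**
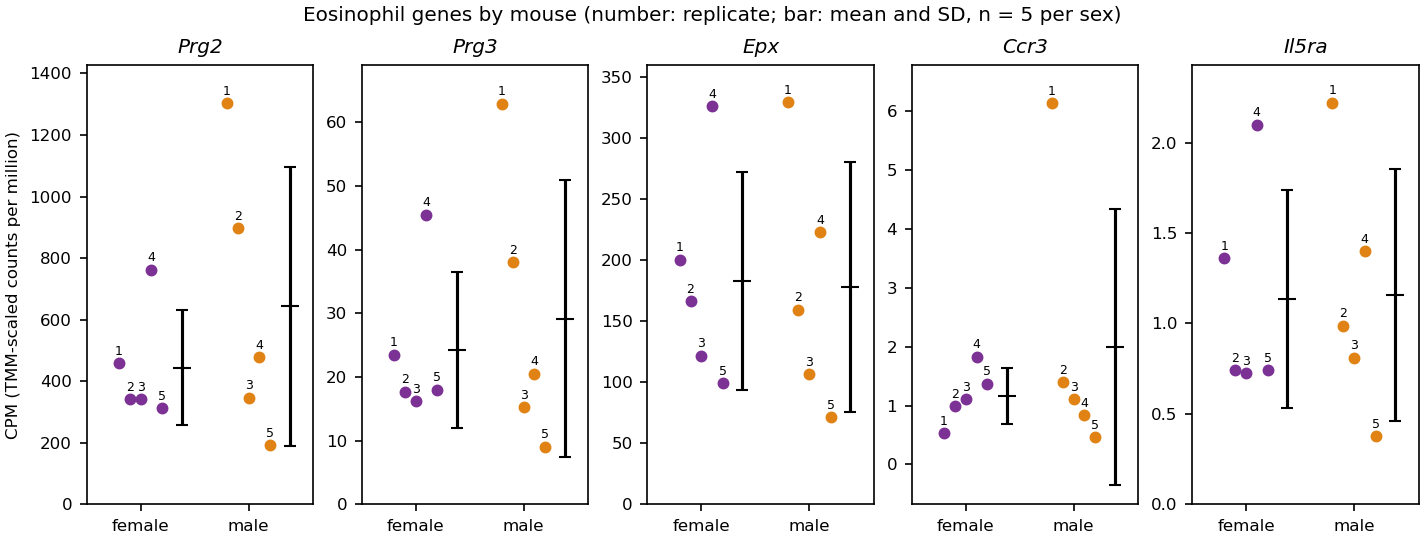
Level of each of the 5 genes in CPM (vertical axis, linear) by sex, 1 point per mouse numbered by replicate, with mean and SD beside the points (n = 5 per sex). Male replicate 1 is highest and male replicate 5 lowest in all 5 panels, and the sexes overlap in each.

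No gene of the 5 was called different between the sexes. In the edgeR quasi-likelihood fit 0 of 5 passed an adjusted p of 0.05, against 0.0545% of all genes tested, and 0 of 5 had an unadjusted p under 0.05, against 9.17% of all genes. The DESeq2 Wald test called 0 of 5, against 0.337% of the genes it tested, and gave 0 of 5 at an unadjusted p under 0.05, against 7.32% of the genes with a p. Female and male values were separate for 0 of 5, against 1.93% of all genes. These tests do not show equal levels: the intervals reach from 0.353-fold to 1.35-fold for Prg2 and from 0.234-fold to 1.47-fold for Ccr3. They include a 1.88-fold higher level in females for Epx and a 1.91-fold higher one for Il5ra. The direction of 4 of the 5 fold changes turned when male replicates 1 and 2 were left out. Without both, all 5 values were positive, at 0.39 for Prg2, 0.69 for Prg3, 0.45 for Epx, 0.52 for Ccr3 and 0.36 for Il5ra (edgeR adjusted p = 0.998 for each). Without male replicate 1 alone, Ccr3 was at 0.29, Il5ra at 0.32 and Prg3 at 0.22, while Prg2 stayed at -0.11. Without female replicate 4 Epx was at -0.28, and without male replicates 3 and 5 at -0.10 and -0.16.

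**Figure D2:**
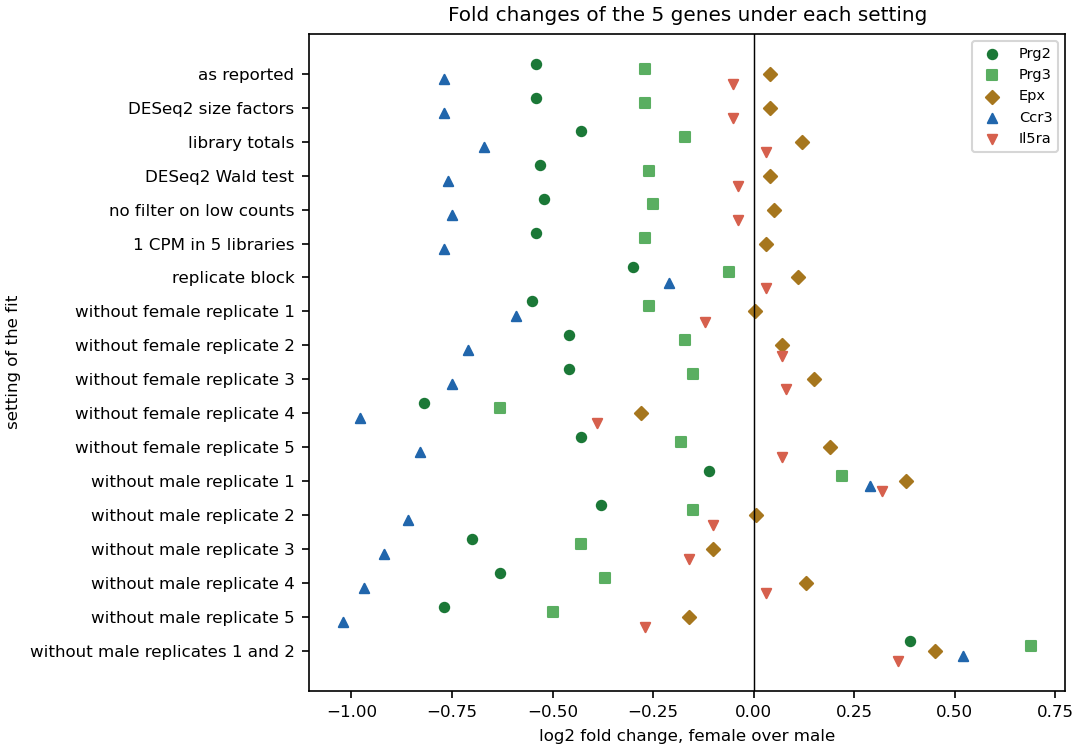
Log2 fold change, female over male (horizontal axis), of the 5 genes under each setting of the fit (vertical axis), 1 symbol per gene. All symbols lie right of 0 when male replicates 1 and 2 are left out, while most of those for Prg2, Prg3 and Ccr3 lie left of 0 elsewhere.

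The granule genes spread widely between mice of one sex. The SD of log2 CPM within a sex, pooled over both sexes, was 0.86 for Prg2, 0.88 for Prg3 and 0.77 for Epx. The median over the 8924 genes at 10 CPM or more was 0.20, and the SD of the 3 granule genes exceeded that of 99.3%, 99.4% and 99.1% of those genes. The highest female was 2.44-fold above the lowest for Prg2 and 3.3-fold for Epx. Among males this range was 6.8-fold for Prg2 and 4.61-fold for Epx. Ccr3 spanned 3.43-fold in females and 13.1-fold in males, and Il5ra 2.89-fold and 5.92-fold. Whether the spread differed between the sexes was not tested. All 5 genes together took 0.0452% to 0.119% of a female library and 0.0275% to 0.164% of a male one.

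Prg2, Prg3, Epx and Il5ra varied together from mouse to mouse, while Ccr3 went with them in some mice only. Male replicate 1 was highest and male replicate 5 lowest for each of the 5 genes. Being highest in male replicate 1 was not particular to them. It held for all 9 mature neutrophil, 6 B lineage and 5 monocyte genes tested. It also held for 3 of 5 primary granule genes and 1 of 8 stem and progenitor genes. Female replicate 4 came next to the top for Prg3, Epx, Ccr3 and Il5ra and had rank 3 for Prg2. Over the 10 libraries, 9 of 10 pairs had a Pearson correlation of log2 CPM with an adjusted p under 0.05 (permutation test, 100000 resamples, two-sided, adjusted over the 10 pairs). By Spearman's rho 6 of 10 passed, those without Ccr3. Prg2 and Prg3 were closest, with r = 0.98 and rho = 0.87 (permutation adjusted p = 0.00020 and 0.00535). Epx and Il5ra followed, with r = 0.96 and rho = 0.92 (permutation adjusted p = 0.00020 and 0.0031). Prg2 and Epx had r = 0.84 and rho = 0.83 (permutation adjusted p = 0.00433 and 0.00833). After subtraction of each sex's mean, r was 0.99 for Prg2 with Prg3, 0.96 for Epx with Il5ra and 0.88 for Prg2 with Epx.

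The 6 pairs among Prg2, Prg3, Epx and Il5ra kept r from 0.71 to 0.98 without the 2 libraries farthest from the median of the pair's first gene. In pairs with Prg2 first these were male replicates 1 and 2. They were female replicate 4 and male replicate 1 for Prg3, and male replicates 1 and 5 for Epx. With male replicates 1 and 2 left out of every pair, r was 0.91 to 0.98 (exact permutation adjusted p at most 0.00236). By rho 5 of these 6 passed without these males, and Prg2 with Prg3 did not (rho = 0.76, exact permutation adjusted p = 0.0613). The 4 pairs with Ccr3 had a lower r when 2 mice were left out, and none passed without male replicates 1 and 2 (exact permutation adjusted p = 0.145 to 0.371). Prg2 and Ccr3 had r = 0.78 and rho = 0.59 (permutation adjusted p = 0.00829 and 0.0997), but r = 0.55 without these males. Prg3 and Ccr3 had r = 0.80 (permutation adjusted p = 0.0069), but 0.49 without female replicate 4 and male replicate 1. Il5ra and Ccr3 had r = 0.64, and Epx and Ccr3 0.59, and these came to 0.04 and 0.01 without male replicates 1 and 5. Without male replicates 1 and 2, rho of the 4 pairs with Ccr3 was 0.21 to 0.33. Without female replicate 4 and male replicate 5 too, r with Ccr3 was -0.85 for Prg2, -0.83 for Prg3 and -0.81 for Epx. With female replicate 1 and male replicate 5 left out instead of these, Il5ra and Ccr3 had r = 0.43. These last r values rest on few mice.

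Genes with the most similar pattern were sought among the tested protein-coding genes with a gene symbol, by the highest Pearson r of log2 CPM over the 10 libraries. Predicted genes, Rik genes, genes named after a clone and antigen receptor segments were left out. Ear2 and Ear1, genes of eosinophil-associated ribonucleases on chromosome 14, came first for Prg2 (r = 0.983 and 0.982), followed by Prg3 (0.979). The same genes with Prg2 led for Prg3. For Epx the order was Il5ra (0.957), the ribonuclease gene Ear6 (0.896) and the phosphatase gene Dusp19 (0.881), and for Il5ra it was Epx, Dusp19 (0.894) and Prg3 (0.890). For Ccr3 other genes led: the actin-binding protein gene Cnn2 (0.966), Hacd4 (0.958) and the interferon-inducible gene Ifi204 (0.951). These r values are the highest of many and are given as a description. Reads of Ear1 and Ear2 are uncertain, since 57.4% and 41.5% of their 50-base stretches occur in other genes, against 0.95% for Ear6.

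**Figure D3:**
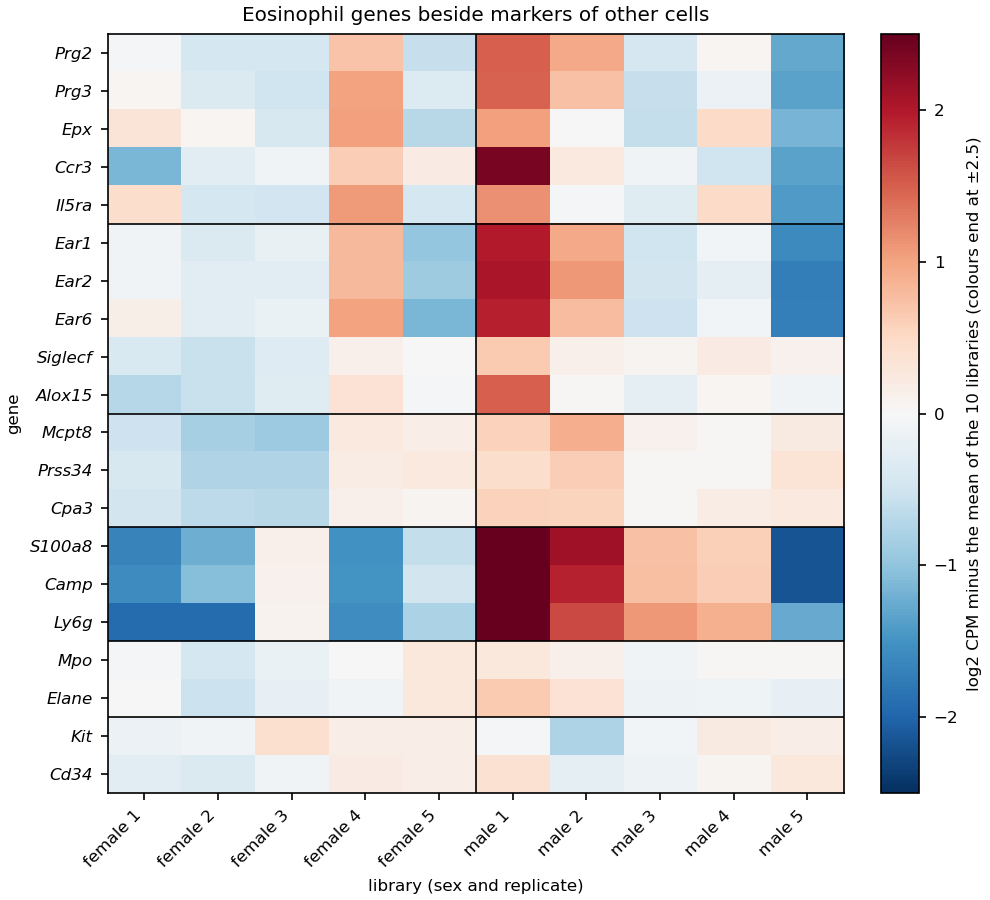
Log2 CPM minus the mean of the 10 libraries (colour) for genes (rows) in each library (columns, females left of males). Lines part the 5 eosinophil genes, other eosinophil genes, basophil and mast cell genes, mature neutrophil genes, primary granule genes and progenitor genes. Prg2, Prg3, Epx and Il5ra share with Ear1, Ear2 and Ear6 high values in female replicate 4 and male replicate 1, where Ly6g is low in the first and high in the second.

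Within the granule, Prg2 exceeded Prg3 by a ratio of counts that varied little. The ratio was 19.5, 19.3, 21, 16.8 and 17.4 in females, against 20.7, 23.6, 22.8, 23.3 and 21.1 in males. Below every male lay 4 of 5 females, and the means were 18.8 ± 1.71 in females, against 22.3 ± 1.31 in males (n = 5 each, SD). The log2 difference was -0.25 (SE 0.07, exact permutation test, two-sided, p = 0.0159, or 0.0636 adjusted over the 4 ratios computed, with a smallest possible p of 0.00794), which does not pass after adjustment. The ratio tests were added after the ratios had been seen. The ratio does not depend on the scaling of libraries, and the log2 difference lay between -0.21 and -0.29 when any one library was left out. Prg2 over Epx was 2.29, 2.05, 2.80, 2.34 and 3.15 in females, against 3.95, 5.62, 3.25, 2.14 and 2.68 in males (exact permutation adjusted p = 0.334). Its highest value was in male replicate 2, the library that read lower for genes of longer exons, and the annotated exons are 838 bases for Prg2 and 2737 for Epx. The part of length in that value was not tested. Epx over Prg3 averaged 7.62 ± 1.47 in females and 7.05 ± 2.59 in males, and Epx over Mpo 8.45% ± 3.99 and 7.14% ± 3.55 (SD, n = 5 each, exact permutation adjusted p = 0.603 for both).

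**Figure D4:**
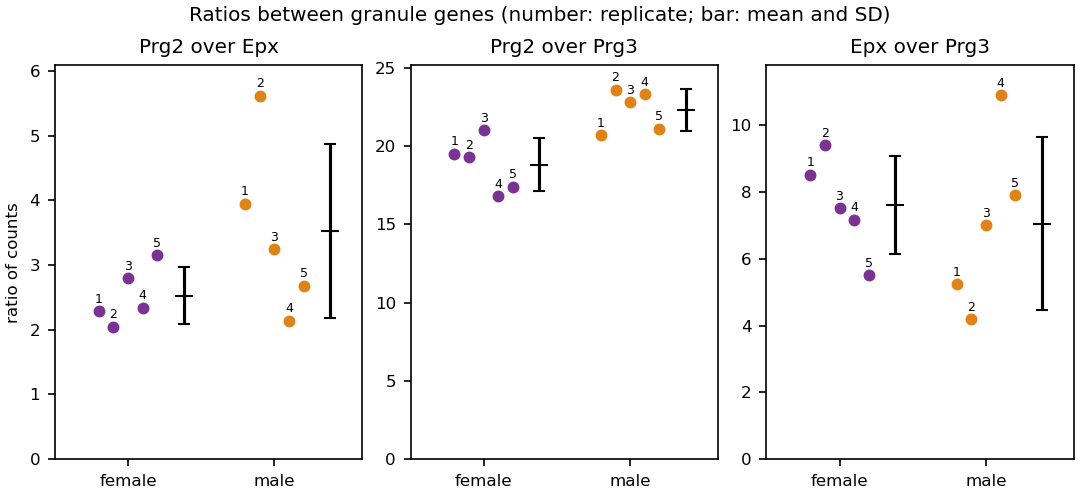
Ratio of counts between pairs of granule genes (vertical axis, from 0) in each mouse, numbered by replicate, with mean and SD (n = 5 per sex). Prg2 over Prg3 keeps within 16.8 to 23.6, while Prg2 over Epx reaches 5.62 in male replicate 2.

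Other eosinophil genes gave no call either. Over all 14674 genes tested, 7041 fold changes were positive and 7633 negative, with a median log2 of -0.01. Of the 10 other eosinophil genes 7 were tested, 2 with a positive and 5 with a negative fold change (median log2 -0.50). edgeR and DESeq2 called 0, and 1 had an edgeR p under 0.05 before adjustment. Their summed level was 153.4 to 339.7 CPM in females, against 131.8 to 648.2 CPM in males, highest in male replicate 1. The ribonuclease genes Ear1, Ear2 and Ear6 were at 51.2 ± 24.5, 40.0 ± 18.7 and 41.8 ± 23.1 CPM in females, against 83.2 ± 77.0, 66.1 ± 62.8 and 59.1 ± 55.2 CPM in males (n = 5 each, SD). Siglecf, a surface lectin of eosinophils, was at 6.14 ± 1.21 CPM in females, against 8.42 ± 1.51 CPM in males (log2 fold change -0.46, SE 0.17, edgeR unadjusted p = 0.0190, adjusted p = 0.506). Its values spanned 4.83 to 7.72 CPM in females and 7.47 to 11.1 CPM in males, a narrower range than those of the granule genes. The lipoxygenase gene Alox15 had a log2 fold change of -0.62 and was at 53.9 CPM in male replicate 1, against 16.1 to 19.8 in the other males. The interleukin 33 receptor gene Il1rl1 (0.23) and the histamine receptor gene Hrh4 (0.16) had positive values (edgeR adjusted p = 0.506 and 0.829). Ear10, Rnase2a and Ptgdr2 were below the filter.

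Of the signalling partners of Il5ra 17 genes were tested, with 12 positive, 5 negative, 0 called by edgeR or DESeq2 and 1 at an unadjusted edgeR p under 0.05 (median log2 0.18). Csf2rb, the chain shared by the receptors for interleukin 5, interleukin 3 and GM-CSF, was at 44.2 ± 12.4 CPM in females, against 50.5 ± 13.8 CPM in males, and its close copy Csf2rb2, which serves interleukin 3 in mice, at 14.9 ± 4.38 and 16.0 ± 4.83 CPM. The edgeR adjusted p was 0.663 and 0.841. These copies share 12.3% and 18.9% of their 50-base stretches with other genes, so their reads can be split. The smallest p among the 17 genes were those of the phosphatase gene Ptpn11 (log2 fold change 0.41), the kinase gene Jak1 (0.22) and the transcription factor gene Stat5b (0.21), with edgeR adjusted p of 0.506, 0.506 and 0.511.

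Regulators of the eosinophil lineage had 4 positive and 8 negative fold changes among 12 genes, with 0 called by edgeR or DESeq2 and 2 at an unadjusted edgeR p under 0.05 (median log2 -0.17). Gata1, the factor that mice need to form eosinophils, was even across the mice at 260.1 ± 17.7 CPM in females, against 262 ± 15.1 CPM in males (log2 fold change -0.01, 95% interval -0.18 to 0.16, edgeR adjusted p = 0.946). Gata2 was at 121 ± 26.3 CPM in females and 119 ± 16.4 in males, and the GATA cofactor Zfpm1, which holds back the eosinophil fate in chicken progenitors, at 577 ± 105 CPM in females and 491 ± 135 in males. The granulocyte factor Cebpe had a log2 fold change of -0.64, the myeloid factor Spi1 of -0.51 and Trib1 of -1.02 (edgeR adjusted p = 0.506 for each). Other blood cells use most of these regulators too. Of the ligands, Ccl5 alone passed the filter (0.35, edgeR adjusted p = 0.551), and Il5, Il3, Csf2 and Ccl11 were not among the genes of the count table. Of the peroxidase relatives of Epx, Mpo was at 2222 ± 396 CPM in females, against 2432 ± 231 CPM in males, while Lpo was below the filter. Of 9 other CC chemokine receptor genes 5 were tested, with 1 positive and 4 negative values, 0 called by edgeR or DESeq2 and 1 at an unadjusted edgeR p under 0.05. The smallest p were those of Ccr1 (-0.71), Ccr9 (-0.63) and Ccr7 (-0.51).

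**Figure D5:**
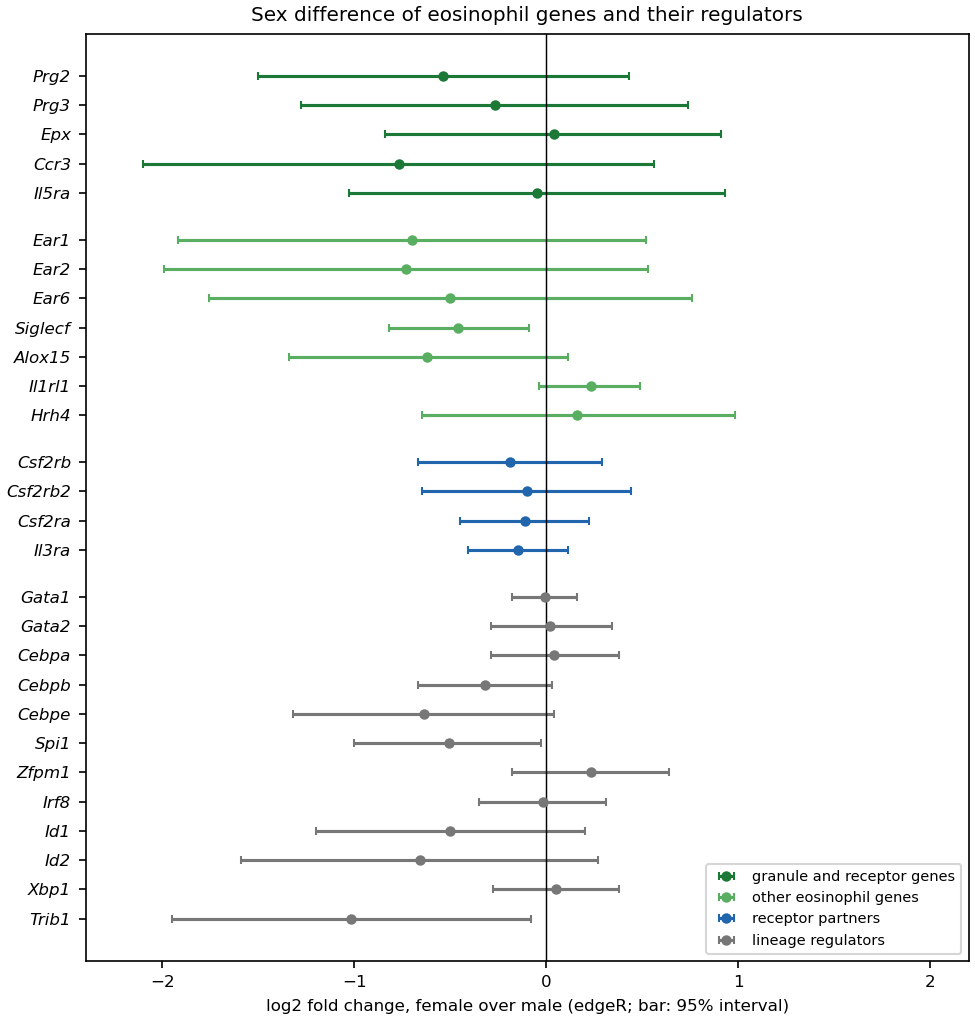
Log2 fold change, female over male (horizontal axis), with its 95% interval from the edgeR fit, for the 5 granule and receptor genes, other eosinophil genes, receptor partners and lineage regulators (rows). The intervals of the 5 genes all include 0 and are several times wider than that of Gata1.

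Markers of other cells also varied between the mice. Basophils, which in humans also carry CCR3 and major basic protein, have genes of their own, and the basophil and mast cell genes summed to 787 to 1546 CPM in females, against 1339 to 2067 CPM in males. Of 10 genes 8 were tested, and all 8 had a negative fold change, against 7633 of all 14674 genes tested. Among the 8 were Mcpt8 (-0.70), Cpa3 (-0.61) and Prss34 (-0.53). edgeR and DESeq2 called 0 of the 8, with 3 at an unadjusted edgeR p under 0.05. Tpsb2 and Cma1 were below the filter and went the other way. They had 13 and 54 counts over all females, against 2 and 19 over all males (DESeq2 log2 fold change 2.65 and 1.44). The basophil protease gene Mcpt8 followed the eosinophil genes in some mice and not in others: female replicate 5 had 317.7 CPM, above females 1 to 3 at 195.6, 158.3 and 150.2 CPM, yet the lowest Prg2 and Epx of the females. Male replicate 5, lowest for all 5 eosinophil genes, had 327.4 CPM of Mcpt8, within the range of the other males (288.1 to 529.9 CPM). Over the 10 libraries r with Mcpt8 was 0.52 for Prg2 and 0.15 for Epx (permutation adjusted p = 0.368 and 0.726 over 15 relations, rho 0.52 and 0.15). It was 0.50 and 0.07 without female replicates 2 and 3, the libraries farthest from the median of Mcpt8.

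The fold change was negative for each of the 9 mature neutrophil genes, with a median log2 of -2.57. All 9 had an unadjusted edgeR p under 0.05, and edgeR and DESeq2 called 0. Each was highest in male replicate 1. S100a8 had r = 0.71 with Prg2 and 0.75 with Ccr3 (rho 0.59 and 0.60, permutation adjusted p = 0.166 for both r), and 0.11 and 0.34 without male replicates 1 and 2. In female replicate 4, where the eosinophil genes ranked 2 or 3, S100a8 was at 48.0 CPM, against 43.6 to 149.9 CPM in the other females. Mpo had r of 0.41 with Prg2 and 0.11 with Epx (permutation adjusted p = 0.368 and 0.766, rho 0.21 and -0.02). These r were 0.70 and 0.49 without female replicates 2 and 5, the libraries farthest from the median of Mpo. Primary granule genes summed to 2576 to 4304 CPM in females and 3345.5 to 4610.0 CPM in males, monocyte genes to 253.3 to 453.7 CPM in females and 319.6 to 778.1 in males, and B lineage genes to 10.2 to 14.3 CPM in females and 14.0 to 41.4 in males. Of these lists 5 of 5, 4 of 5 and 6 of 6 tested genes had a negative value. edgeR called 0 of them, with 5 of the B lineage genes at an unadjusted p under 0.05, and DESeq2 called Pax5 and Cd79a. Of 8 stem and progenitor genes 5 were positive, 0 were called by edgeR or DESeq2 and 2 had an unadjusted edgeR p under 0.05. No marker of these lists was at 0 in all 10 libraries, but neither was any other of the genes counted, so this does not show that these cells were present. The part of these cells in the levels of the 5 genes was not tested.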

How the data were processed

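Total RNA of lineage-depleted marrow was sequenced from 5 female and 5 male mice, 1 library each. Per the submitters' processing notes, STAR, featureCounts and DESeq were used with the builds GRCm38.p6 and mm10; the sources used here do not give versions, annotation or strand setting. The authors deposited raw counts per Ensembl gene and a normalized table (signal), whose values equalled the count divided by 1 size factor per library (0.852 to 1.13). The counts were analysed, and 25116 of 25178 genes were found by identifier in GENCODE vM21.

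Genes were filtered with filterByExpr by sex and scaled by TMM, and sex was tested with the quasi-likelihood test of edgeR 4.0.16 (R 4.3.3), Benjamini-Hochberg adjusted over 14674 genes. Intervals of fold changes use that fit's SE and degrees of freedom. DESeq2 1.42.0 and other scalings, filters, a replicate block and left-out libraries were alternatives. Log2 CPM used a prior count of 2. The procedure was tested on simulated data. Correlations used 100000 permutations, or exact enumeration under 10 libraries. The 5 genes and all gene lists were chosen with earlier results of these data known. Named are the 5 genes, all tested genes of the other eosinophil list, up to 3 genes of smallest p of each other list, 10 genes set by name, and the 3 genes most alike per gene; some list genes are not reported here. Correlations with Mcpt8, S100a8 and Mpo and the tests of the 4 ratios were added after the values were seen. The labels do not say how mice were housed or whether they were littermates. Counting errors leave out PCR, whose copies were not told from new molecules.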

Additional observations from a re-analysis of the deposited data

Results flagged for a closer look

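A mouse was noted where its gap to the nearest mouse of its sex, divided by the range of that sex, exceeded 0.71 (Dixon's test for 5 samples). Chance alone gives about 1 in 20 for a single group, and 11 of 108 groups were noted, 9 of them for male replicate 1. These shares cannot be compared, because the genes vary together and some were picked from these data. The picked genes had a small p or a pattern like that of a member, as Ifi204 had with Ccr3. Of the 5 eosinophil genes, Prg3 was at 45.5 CPM in female replicate 4, against 16.2 to 23.5 CPM in the other females, and Ccr3 at 6.13 CPM in male replicate 1, against 0.469 to 1.40 CPM in the other males.

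In male replicate 1 the same held for Siglecf (11.1 CPM, others 7.47 to 8.22), Alox15 (53.9, others 16.1 to 19.8), Trib1 (5.20, others 1.19 to 1.75) and Ccr1 (24.4, others 7.88 to 10.2). It also held for Ly6g (41.9 CPM, others 1.31 to 9.76), Ccr2 (67.5, others 21.6 to 29.4), Cx3cr1 (21.8, others 11.5 to 13.4) and Ifi204 (6.59, others 0.751 to 1.76). Gata2 was at 166.8 CPM in female replicate 5, against 104.5 to 118.9 CPM in the other females.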

How the results depend on the processing

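No alternative called any of the 5 genes (84 values over 17 alternatives, smallest adjusted p 0.324), and 16 of the 84 had the opposite direction. Without male replicates 1 and 2 the log2 fold change was 0.39 for Prg2, 0.69 for Prg3, 0.52 for Ccr3 and 0.36 for Il5ra. When 1 library was left out, it ran from -0.82 to -0.11 for Prg2, -0.63 to 0.22 for Prg3, -0.28 to 0.38 for Epx, -1.02 to 0.29 for Ccr3 and -0.39 to 0.32 for Il5ra. Il5ra was at 0.03 both with library totals in place of TMM and with the replicate block, and it was removed by the filter of 1 CPM in 5 libraries. The fit over all genes called 8, against 5 with the replicate block and 60 by DESeq2 (39 of these higher in females, 21 lower). Same-numbered mice did not deviate together (correlations -0.30 to -0.01), and 0 of 5 females correlated best with the male of their number, so the numbers were not taken as pairs. Of the 10 correlations between the genes, 6 passed by Pearson's r without male replicates 1 and 2, against 9 with them, and 5 by Spearman's rho, against 6. The exact p of the Prg2 over Prg3 ratio was 0.0536 without these males, an alternative chosen after seeing the data. Depth limits Ccr3 and Il5ra, with as few as 10 and 8 counts in a library.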
